A study of Rattus norvegicus with 28 samples.

Results

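The hippocampal response to traumatic brain injury (TBI) was followed in 5 gene expression arrays, the 3 titled TBI and the 2 titled Sham, chosen by their titles out of 14 gene expression arrays and 28 arrays of all kinds. Each array held RNA from the hippocampus of 1 adult male Sprague-Dawley rat, an outbred laboratory stock, collected 24 h after surgery. TBI rats received a severe parasagittal fluid-percussion injury, in which a pulse of fluid strikes the exposed dura beside the midline, and Sham rats went through surgery without the pulse. Neither group's labels name a drug, and the study's methods give untreated rats vehicle. The other 9 arrays were of injured rats given imipramine, Prozac or Zoloft, and they entered through the estimate of the spread between rats and through the choice of probes bright enough to test.

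A mechanical blow to the brain opens damaged vessels, releases signals from dying cells and sets off reactions in the glia. Astrocytes enlarge and take up a reactive state with more intermediate filament protein, microglia and invading macrophages clear debris, and neutrophils follow chemokines into the tissue. The hippocampus, which serves memory, holds densely packed excitatory pyramidal and granule neurons kept in check by inhibitory interneurons, and it is known to be vulnerable to this injury. Since whole tissue was measured, fewer cells of a type and less RNA per cell cannot be told apart, and the same holds for more.

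Values are log2 levels: a probe's brightness was divided by its array's 75th percentile, taken over probes brighter than background, and log2 was taken, so that a difference of 1 stands for a factor of 2. To be tested, a probe had to exceed background throughout 1 of the 5 groups or more, which 17322 of 30367 probes did, and a gene with several probes is described by its brightest. Adjusted p is limma's p after Benjamini-Hochberg adjustment over the 17322 probes, and a gene rose or fell where it was under 0.05. The arrays had between 14676 (TBI replicate 1) and 17415 (TBI replicate 3) probes above background, and the median over all tested probes lay at -0.23, 0.08 and 0.17 in TBI replicates 1 to 3, relative to the mean of Sham. Both Sham arrays lay alone on a slide of their own, scanned on another day, so slide, scan day and injury cannot be told apart in any value below. The Sham arrays also differed from each other, with Sham replicate 2 the higher in many of the genes that rose, and counts of a gene list are given without an array where fewer of the called genes passed there by over 1.5 times.

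Between the TBI and Sham arrays 2879 probes passed the threshold, 1438 up in TBI (8.3% of those tested) and 1441 down (8.32%). In either direction it was 16.6%. Among the 10220 genes with a symbol, 947 (9.27%) rose and 578 (5.66%) fell, and these are the shares to hold each gene list against. Rises and falls past the threshold were of like size in the median (0.97 and -0.99). By a factor of 2 or more 694 probes rose and 708 fell. Only among the furthest changes were rises more common: 257 probes rose and 104 fell by a factor of 4 or more, and 64 rose by a factor of 8 or more. Probe by probe, 2878 of the 2879 had no overlap between the Sham and TBI arrays. The same values gave the calls, so this is no separate support for them. Without Sham replicate 1, 1268 probes passed (557 up, 711 down), without Sham replicate 2, 1276 (714 up, 562 down), and without TBI replicate 2, 1902 (785 up, 1117 down). The split between up and down also moved with TBI replicates 1 and 3: 65.6% of calls were rises without replicate 1 and 37.4% without replicate 3, against 49.9% over all arrays. With normexp background correction in place of the scanner's own, it was 37.8%.

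**Figure D1:**
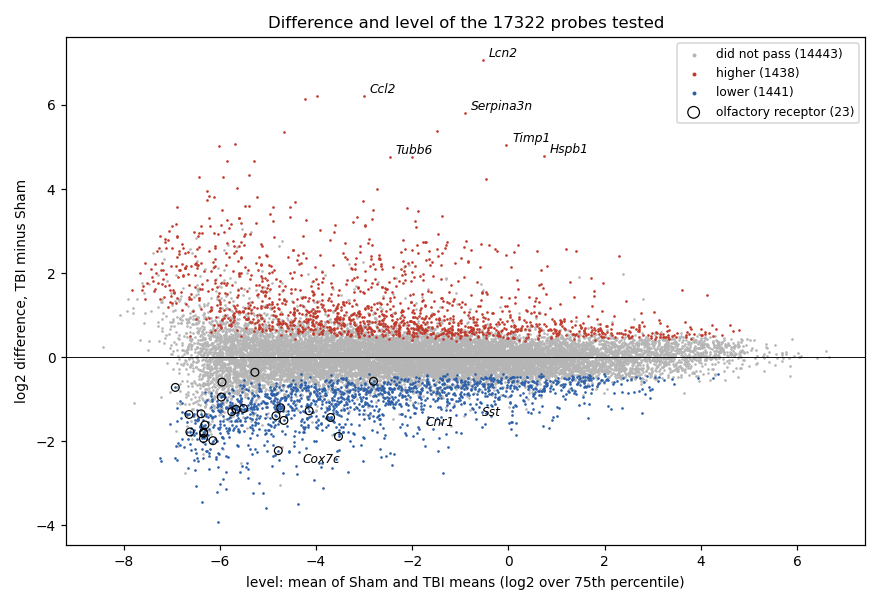
Each point is 1 of the 17322 probes tested, placed by its level (x axis, mean of the Sham and TBI means, log2 over the array's 75th percentile) and its log2 difference, TBI minus Sham (y axis). Red and blue points are the 1438 that rose and the 1441 that fell, and the furthest rises, led by Lcn2 at 7.06, lie further from 0 than any fall. The 23 olfactory receptor probes are circled.

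Chemokines are the secreted proteins that draw leukocytes into tissue. Of 25 chemokine and chemokine receptor genes tested, 11 rose and 1 fell, and their median difference was 1.61. That median rests on genes that were dim in Sham: over the 13 above background on all 5 arrays it was 0.14, with 3 rises, and with normexp correction it was 0.3 over the 25. Ccl2, which attracts monocytes, read -7.12 and -5.11 in Sham and 0.80, 0.36 and -0.84 in TBI. The lowest TBI array was thus far above the higher Sham array, and Ccl2 rose by 6.22 ± 0.86 (SE) on the log2 scale (adjusted p = 0.00082), with 1 of the 2 Sham arrays above background, and by 5.21 without Sham replicate 1. Several chemokines were not above background on either Sham array and were on all 3 TBI arrays, so only a lower bound can be given. Ccl7, another monocyte attractant, was at least 44.5-fold higher after TBI (adjusted p = 0.0005). Cxcl1, which attracts neutrophils, was at least 8.7-fold higher (adjusted p = 0.0006), and Cxcl13, which draws lymphocytes to follicles, at least 7.13-fold (adjusted p = 0.00053). Ccl3 was at least 5.29-fold and Ccl4 at least 5.22-fold higher, both attractants of monocytes and T cells. Ccl12 rose by 3.58 and Ccl6 by 2.34, and neither held without every array: Ccl12 had an adjusted p of 0.088 without Sham replicate 1, and Ccl6 one of 0.18 without Sham replicate 2.

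Among cytokines and their receptors 12 of 31 rose and 1 fell, with a median of 0.63. Members of interleukin-1 signalling were among them. Il1b, the inflammatory cytokine itself, was at least 4.03-fold higher in TBI, its antagonist Il1rn at least 7.11-fold and its decoy receptor Il1r2 at least 6.61-fold, and none of these was above background on a Sham array. Il1r2 had an adjusted p of 0.053 without Sham replicate 1. Il6 did not pass the filter on brightness. Receptors that were above background in both groups rose too. Tnfrsf12a, the receptor of the cytokine TWEAK, read -4.21 and -3.56 in Sham and -0.72, 0.15 and -0.46 in TBI, a rise of 3.54 ± 0.48 (adjusted p = 0.00072). Il13ra1, a receptor chain for interleukin-13, lay at -4.42 and -4.19 against -2.18, -1.98 and -2.09, with little spread in either group, and rose by 2.22 (adjusted p = 4e-05). Tnfrsf1a, the main receptor of tumour necrosis factor, rose by 1.61 (adjusted p = 0.0023). Of the 12 rises, 5 passed without Sham replicate 1, and the fall was lost without Sham replicate 2.

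In the JAK-STAT pathway, which carries signals of the interleukin-6 family to the nucleus, 5 of 16 genes rose with a median of 0.53. Bcl3, an atypical NF-kappaB inhibitor protein that acts in the nucleus, rose by 2.87 and the transcription factor Cebpd by 1.75, and neither passed without Sham replicate 1 (adjusted p = 0.069 and 0.13). Ptpn6, a phosphatase of blood cells that damps cytokine signals, rose by 1.33 (adjusted p = 0.0033). Stat3 itself read -2.85 and -2.52 against -2.28, -1.54 and -1.81, a difference of 0.81 that did not pass (adjusted p = 0.062). Only 1 of the 5 rises passed without Sham replicate 1, and 3 without TBI replicate 2. In the NF-kappaB and Toll-like receptor list 7 of 18 rose, with a median of 0.45. They included Cd14, the co-receptor for bacterial lipid (3.49, adjusted p = 0.00097), Tlr2 (1.09, adjusted p = 0.003) and Tlr4, at least 2.62-fold higher, which had an adjusted p of 0.076 without Sham replicate 2. Nfkbia, the inhibitor that NF-kappaB itself induces, differed by 0.49 (adjusted p = 0.22). The 7 rises came down to 3 without Sham replicate 1 and to 2 without Sham replicate 2.

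Complement, the cascade of plasma proteins that tags debris and microbes, rose in 11 of 21 genes and fell in none, with a median of 0.74. C3, the central component, read -2.02 and -1.29 in Sham and 0.36, 0.83 and 0.26 in TBI, and rose by 2.14 ± 0.25 (adjusted p = 0.00034). The proteases that start the classical pathway rose with it, C1s by 2.42 and C1r by 2.09 (adjusted p = 0.0002 and 0.00045). Their inhibitor Serping1 rose by 2.69 (adjusted p = 0.00037), the alternative pathway's Cfb by 1.76 and C5ar1, the receptor of the fragment C5a, by 2.10 (adjusted p = 0.0026 and 0.0033). Of the chains of C1q, which recognises targets, C1qc rose by 1.22 (adjusted p = 0.025, and 0.15 without Sham replicate 1), while C1qa read 1.71 and 1.45 against 1.57, 2.55 and 1.86, with the groups overlapping (difference 0.41, adjusted p = 0.33). Of the 11 rises, 7 passed without Sham replicate 1 and 6 without Sham replicate 2.

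Interferon-stimulated genes and the machinery of antigen presentation rose in part. Interferons act through STAT and IRF transcription factors on a short DNA element, the interferon-stimulated response element, and the list holds antiviral proteins and immunoproteasome subunits as well as the factors themselves. Of 30 genes 13 rose and 1 fell, with a median of 0.94. Ifitm1 and Ifitm3, membrane proteins that block virus entry, both rose by 2.73 (adjusted p = 0.00053 and 0.0013). Gbp2, a guanylate-binding protein that attacks intracellular microbes, read -3.19 and -2.08 in Sham and 0.12, -0.42 and 0.38 in TBI. It rose by 2.66 ± 0.37 (adjusted p = 0.00081), with a clear gap between the groups. Bst2 (tetherin, which holds budding virus at the cell surface) rose by 2.16 and the immunoproteasome subunit Psmb9 by 1.85 (adjusted p = 0.0019 and 0.00077). Isg15, a ubiquitin-like modifier, rose by 2.26 and Psmb8 by 1.90, and both lost the call without Sham replicate 1 (adjusted p = 0.069 and 0.2). Ifit3 was at least 2.62-fold higher and had an adjusted p of 0.069 without that array. Irf7, the factor that amplifies interferon production, rose by 1.12 (adjusted p = 0.023), with an adjusted p of 0.24 without Sham replicate 1. Without Sham replicate 1, 6 of the 13 rises passed, and without Sham replicate 2 all 13 did. Igtp was the gene that fell (-1.17), and a second probe of it rose by 1.11, so its direction is not settled.

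The promoters of 4 of these genes are shown because all of them hold the core of the interferon response element, GAAANNGAA on either strand, among the 300 bases around the start of transcription (RefSeq, assembly GRCr8, 250 bases before to 50 after the start, printed 5′ to 3′ in the direction of transcription). Capitals mark each match. They lie at chr2:234005477-234005776 on the + strand for Gbp2, chr1:241527076-241527375 (+) for Ifit3, chr16:18254918-18255217 (-) for Bst2 and chr20:4656982-4657281 (-) for Psmb8.
Gbp2: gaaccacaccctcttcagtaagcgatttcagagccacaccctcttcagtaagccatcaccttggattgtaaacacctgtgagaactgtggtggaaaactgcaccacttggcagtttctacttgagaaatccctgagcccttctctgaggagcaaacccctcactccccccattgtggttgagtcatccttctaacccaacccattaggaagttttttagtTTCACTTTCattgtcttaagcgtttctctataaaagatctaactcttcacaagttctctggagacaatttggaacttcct
Ifit3: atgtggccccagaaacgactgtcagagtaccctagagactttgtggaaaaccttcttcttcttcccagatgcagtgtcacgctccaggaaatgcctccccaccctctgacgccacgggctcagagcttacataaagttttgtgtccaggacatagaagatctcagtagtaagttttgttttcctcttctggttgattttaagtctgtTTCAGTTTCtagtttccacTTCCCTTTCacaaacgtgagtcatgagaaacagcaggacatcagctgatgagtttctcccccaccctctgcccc
Bst2: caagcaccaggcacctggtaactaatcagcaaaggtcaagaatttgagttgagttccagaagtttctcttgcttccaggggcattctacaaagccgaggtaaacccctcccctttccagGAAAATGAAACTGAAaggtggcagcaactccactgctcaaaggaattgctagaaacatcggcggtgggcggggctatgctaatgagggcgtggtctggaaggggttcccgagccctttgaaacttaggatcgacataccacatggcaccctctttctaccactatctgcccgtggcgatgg
Psmb8: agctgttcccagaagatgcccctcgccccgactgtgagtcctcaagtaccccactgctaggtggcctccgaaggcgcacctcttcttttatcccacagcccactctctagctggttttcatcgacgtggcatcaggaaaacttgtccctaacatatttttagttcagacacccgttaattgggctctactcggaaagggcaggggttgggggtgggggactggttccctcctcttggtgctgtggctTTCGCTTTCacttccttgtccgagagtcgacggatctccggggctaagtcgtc
Gbp2 and Psmb8 each held 1 match and Ifit3 2, all read from the opposite strand, while the 2 matches of Bst2 overlapped each other. The first of these also overlapped a match to the STAT pattern TTCNNNGAA. Of the 9 interferon genes named by rule, 7 had a promoter in the table and 6 of these held the core, which occurs in 9.5% of all 27457 promoters of that length. The STAT pattern was found in 3 of the 7, against 8.68% of all promoters. A match of letters does not show that a factor binds there.

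Genes of antigen presentation rose in 10 of 22 cases, none fell and the median was 0.96, and 3 of the 10 passed without Sham replicate 1. Cd74, the invariant chain of class II molecules, read -2.85 and -2.23 against -0.14, -1.34 and -0.37 and rose by 1.93 (adjusted p = 0.02). RT1-Da, a rat class II chain, rose by 2.72 (adjusted p = 0.0069). Neither passed without Sham replicate 1 (adjusted p = 0.14 and 0.063). Of the class I genes tested RT1-CE5 rose by 0.95 and RT1-A1 by 0.97 (adjusted p = 0.0031 and 0.013), the latter not without Sham replicate 1 or 2 (adjusted p = 0.081 and 0.072), while RT1-A2, RT1-CE10, RT1-N3, RT1-S3 and RT1-M3-1 did not pass. The proteasome activator Psme1 rose by 0.90 (adjusted p = 0.0035), and B2m, the shared light chain of class I, differed by 0.10 with overlapping groups (adjusted p = 0.74). The RT1 genes are close copies of each other, so their probes may read more than the gene named.

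Lipid mediators changed at selected steps. In the prostaglandin and leukotriene list 5 of 15 genes rose and 1 fell, with a median of 0.35. Tbxas1, thromboxane synthase, rose by 2.21 (adjusted p = 0.0016) and Ptges, an inducible prostaglandin E synthase, was at least 4.65-fold higher, with an adjusted p of 0.11 without Sham replicate 2. Ptgs2, the inducible cyclooxygenase, did not pass the filter on brightness, and Ptgs1, the constitutive enzyme, differed by -0.56 (adjusted p = 0.16). Of the 5 rises, 2 passed without Sham replicate 1 and 3 without TBI replicate 2, and the fall, Ptgir, was lost with either Sham array left out. Of 13 purine receptors and ectonucleotidases 2 rose, P2ry6, a receptor for UDP on phagocytes (1.22), and P2ry14 (0.94), of which 1 passed without Sham replicate 1. None of the 5 genes tested of the kynurenine pathway, which breaks down tryptophan, passed. Limma found 0 calls there as reported, but 2 genes fell with quantile normalization. With each array scaled to the 75th percentile of all its probes 1 fell. Kmo and Ido1, the genes listed first, did not pass the filter on brightness.

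Outside the cells, inhibitors of proteases were among the furthest rises. Timp1, an inhibitor of matrix metalloproteinases, read -3.15 and -1.99 in Sham and 2.30, 2.54 and 2.60 in TBI. The injured rats averaged 2.48 ± 0.16 (SD, n = 3) against -2.57 ± 0.82 (n = 2), and the rise was 5.04 ± 0.38, or 33-fold (adjusted p = 2.8e-05). Slpi, an inhibitor of leukocyte elastase, was at least 20.6-fold higher (adjusted p = 0.00015). Mmp19, a metalloproteinase, was at least 2.88-fold higher (adjusted p = 2.7e-05). Mmp9, the gelatinase of neutrophils, rose by 2.0 at an adjusted p of 0.049, and it missed the threshold when any of the 5 arrays was left out (0.057 to 0.26). In the whole list 12 of 29 rose, 2 fell and the median was 0.78, with 7 of the 12 rises passing without Sham replicate 1 and 7 without Sham replicate 2. Of the 2 falls 0 passed without Sham replicate 1, Sham replicate 2 or TBI replicate 1, and 1 without TBI replicate 2 or 3.

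Of the matrix protein genes tested 20% rose, against 9.27% of all named genes, and 6.67% fell, near the 5.66% of all named genes. Spp1 (osteopontin, made by phagocytes) read -6.31 and -2.03 in Sham and 1.88, 1.34 and 0.42 in TBI. Its Sham values lay far apart, with 1 of 2 above background, and the rise of 5.38 ± 1.04 had an adjusted p of 0.005 and came to 3.24 without Sham replicate 1 (adjusted p = 0.049). Cd44, the receptor for hyaluronan, rose by 2.77 with tight values in both groups (-2.46 and -2.10 against 0.15, 0.78 and 0.56, adjusted p = 0.0002). Fn1 (fibronectin) rose by 1.81 and did not pass without Sham replicate 1 or 2 (adjusted p = 0.07 and 0.098). Among components of the net around neurons Hapln1, a link protein, fell by 1.36 and Bcan (brevican) by 0.83, while Ncan and Vcan did not pass and Acan was not bright enough to test. Neither fall passed without Sham replicate 1, Sham replicate 2 or TBI replicate 2, and 1 did without TBI replicate 1. Of 30 matrix genes 6 rose and 2 fell, with a median of 0.62, and 2 of the 6 passed without Sham replicate 1 and 2 without Sham replicate 2.

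Annexins, S100 proteins and the actin cytoskeleton formed a broad rise. Of 46 genes 26 rose and 1 fell, with a median of 0.89, and without Sham replicate 1 17 of the 26 passed and the fall, Tmsb10, did not. Anxa2, which bundles membrane and actin, read -1.37 and -0.90 against 1.53, 1.56 and 1.53, and rose by 2.68 ± 0.23 (adjusted p = 4.3e-05). Its partner S100a10 rose by 2.42 and the small calcium sensors S100a6 and S100a4 by 2.67 and 2.52 (adjusted p = 4.3e-05, 7.6e-05 and 0.0002). Tagln2, an actin-binding protein, rose by 2.93, Flnc, an actin cross-linker, by 2.80 and Capg, an actin-capping protein of phagocytes, by 2.58 (adjusted p = 7.6e-05, 0.0025 and 0.0033). Msn (moesin), which ties actin to the membrane, was at least 3.83-fold higher.

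**Figure D2:**
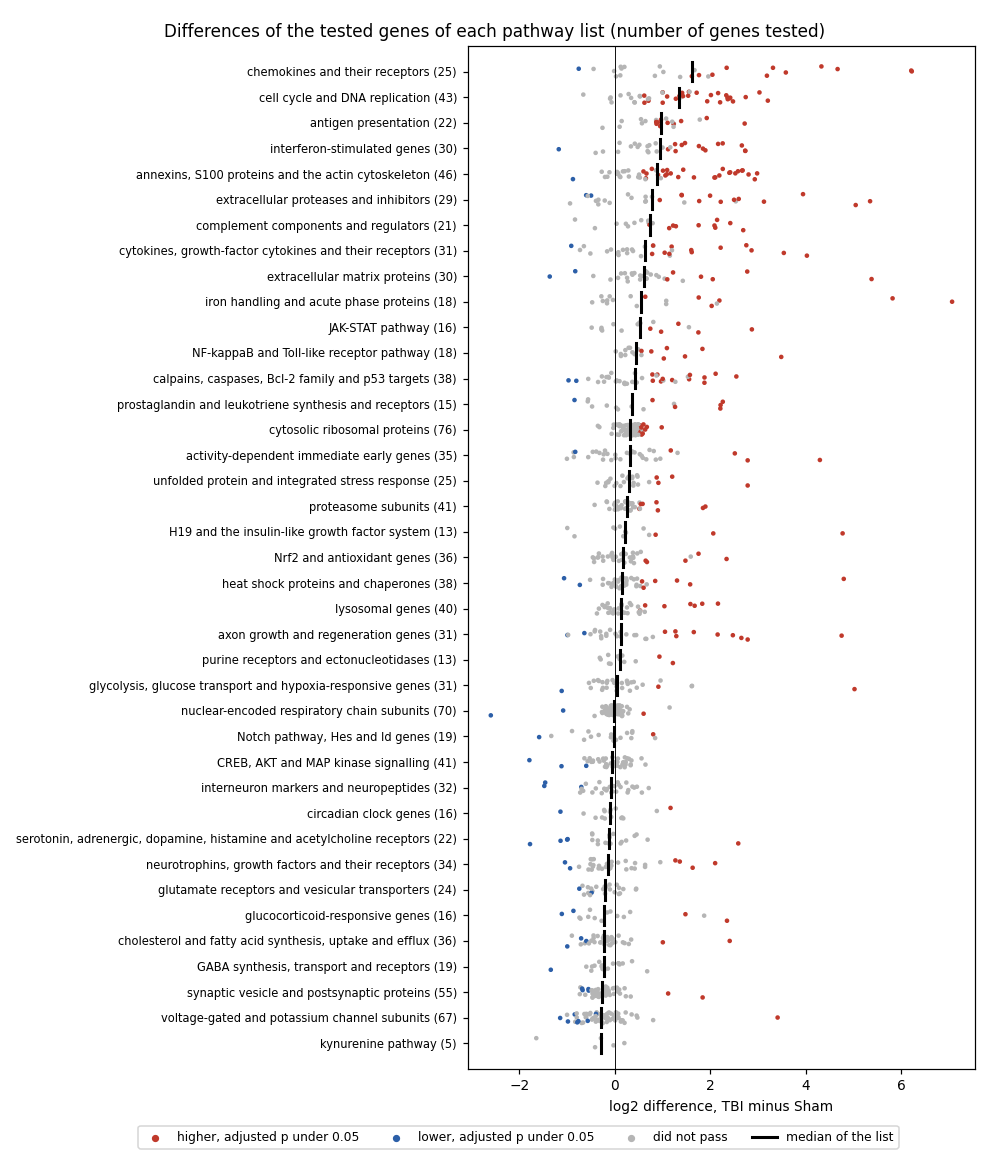
Each point is a tested gene of the list named at left (number tested in brackets), placed by its log2 difference, TBI minus Sham; red points rose, blue points fell, grey points did not pass, and the black bar is the median of the list. The upper lists, from chemokines down to prostaglandins and leukotrienes, have medians between 1.61 and 0.35, and channel and synapse lists have medians of -0.28 and -0.27 with few calls.

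Heat shock proteins changed in a few members, and most chaperones did not pass. Hspb1, a small heat shock protein that stabilises actin and unfolded proteins, read -2.48 and -0.86 in Sham and 2.77, 3.77 and 2.84 in TBI. It rose by 4.79 ± 0.54, or 27.8-fold (adjusted p = 0.00026). Hspb8, its relative, rose by 1.58 and Hspa2 by 1.30 (adjusted p = 0.0015 and 0.0037), whereas Hspb2 fell by 1.06 and the co-chaperone Dnajb6 by 0.73, the latter with an adjusted p of 0.13 without Sham replicate 2. Hspa1b, the stress-inducible Hsp70, had no matched probe. Of 38 genes 6 rose and 2 fell, the median was 0.16, and 3 of the 6 rises passed without Sham replicate 1, 3 without Sham replicate 2 and 3 without TBI replicate 2. Of the 2 falls, 1 passed with either Sham array left out. The promoter of Hspb1 (GRCr8, chr12:26432252-26432551, - strand, the same window) is given because it holds 2 matches, in capitals, to the heat shock element core GAANNTTC.
Hspb1: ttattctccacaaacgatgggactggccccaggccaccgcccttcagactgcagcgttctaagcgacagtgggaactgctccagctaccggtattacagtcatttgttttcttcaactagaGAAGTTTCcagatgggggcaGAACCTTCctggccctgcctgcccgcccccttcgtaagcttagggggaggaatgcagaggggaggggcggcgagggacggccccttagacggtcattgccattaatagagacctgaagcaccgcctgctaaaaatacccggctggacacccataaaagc
That core occurs in 8.34% of all promoters and in 3 of the 7 named heat shock genes with a promoter, Hspb1, Hspb8 and Dnajb6, the last of which fell. Other lists were searched in the same way, among their named genes with a promoter. The STAT pattern was in 0 of 6 JAK-STAT genes, the NF-kappaB pattern GGGNNTTCC in 1 of 5 of its list (5.97% of all promoters) and the antioxidant pattern TGACNNNGC in 3 of 5 (12.2%). Of 3 immediate early genes 1 held the cyclic AMP response element TGACGTCA (1.91%) and 0 the AP-1 pattern TGANTCA (7.33%), and 0 of 4 clock genes held the E-box CACGTG (6.65%) and 0 of 4 cholesterol genes the sterol pattern TCACNCCAC (1.13%).

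Markers of stress inside the cell rose in part. Atf3, a transcription factor induced by many kinds of injury, read -5.23 and -4.99 against -2.67, -1.87 and -2.45 and rose by 2.78 (adjusted p = 0.0026). Its partners in the integrated stress response did not pass: Atf4 differed by 0.47 (adjusted p = 0.09) and Ddit3 by 0.16 (adjusted p = 0.55). Of 25 genes of that response and of protein folding 4 rose, with a median of 0.29, and 2 of the 4 passed without Sham replicate 1, 1 without Sham replicate 2 and 2 without TBI replicate 2. Among antioxidant genes 5 of 36 rose, with a median of 0.17. They were Hmox1, the enzyme that degrades haem (2.34), the metallothioneins Mt1 and Mt2A, which bind zinc and copper (1.75 and 1.48), Gpx1 (0.67) and Prdx1 (0.65), which remove peroxides. Hmox1 read -4.18 and -3.88 against -1.52, -1.19 and -2.35, without overlap. Not 1 of the 5 passed without Sham replicate 1 or without Sham replicate 2, and 1 did without TBI replicate 2. Nqo1, a standard Nrf2 target, read -3.36 and -3.06 against -3.31, -2.85 and -3.39 (difference 0.02, adjusted p = 0.96).

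Iron handling and the acute phase held one of the furthest rises. Lcn2 (lipocalin 2), which binds bacterial iron carriers and is made by reactive astrocytes and neutrophils, read -6.16 and -1.96 in Sham and 3.45, 3.71 and 1.85 in TBI. The Sham arrays lay far apart, with 1 of 2 above background, and the difference between the groups was 7.06 ± 0.92, or 134-fold (adjusted p = 0.00059). Its size rests on Sham replicate 1, without which it was 4.97 (adjusted p = 0.0029). Serpina3n, an inhibitor of granzyme and cathepsin proteases from astrocytes, ran from -4.95 and -2.69 to 1.47, 4.29 and 0.23. It rose by 5.82 ± 1.11 (adjusted p = 0.0049), with an adjusted p of 0.062 without Sham replicate 1. Cp (ceruloplasmin), which oxidises iron for export, rose by 2.19 with a spread of 0.15 among TBI arrays (adjusted p = 0.0002). Of 18 genes 6 rose, none fell and the median was 0.55, and 2 of the 6 passed without Sham replicate 1.

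The genes of cell death that rose included those of inflammatory death and of DNA damage. Pycard, the adaptor of the inflammasome, rose by 1.57 and Casp4, an inflammatory caspase, by 1.56 (adjusted p = 0.0014 and 0.0015). Ripk3, the kinase of necroptosis, rose by 1.88, with an adjusted p of 0.07 without Sham replicate 1. Gadd45a, which responds to DNA damage, read -3.39 and -3.18 against -1.26, -0.26 and -0.70 and rose by 2.55 (adjusted p = 0.0011). Capn2, a calcium-activated protease, rose by 0.89 (adjusted p = 0.0046, and 0.053 without Sham replicate 2), and Bak1, which permeabilises mitochondria, by 1.0 (adjusted p = 0.0026). In all 12 of 38 rose, 2 fell and the median was 0.43, and 6 of the 12 rises and 1 of the 2 falls passed without Sham replicate 1.

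Genes known from regrowing axons rose in 9 of 31 cases and fell in 2, with a median of 0.12. Tubb6, a tubulin of the cytoskeleton, had the lowest p of the named genes: -5.21 and -4.48 in Sham against -0.06, 0.19 and -0.42 in TBI, a rise of 4.75 ± 0.25 (adjusted p = 3.6e-06). Ecel1, a neuronal endopeptidase induced by nerve injury, rose by 2.47, Lgals1 (galectin 1) by 2.15 and the small GTPase Rhoc by 1.66 (adjusted p = 0.0011, 0.0036 and 0.0002). Gal (galanin), a peptide that injured neurons make, rose by 1.27, with an adjusted p of 0.1 without Sham replicate 2, and Sprr1a was at least 4.26-fold higher, with 0.13 without the same array. Gap43, the classical growth cone protein, read 2.43 and 1.62 against 2.06, 2.49 and 2.89, and the groups overlapped (adjusted p = 0.26). Of the 2 falls 1 passed without Sham replicate 1 and 0 without Sham replicate 2.

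The imprinted RNA H19 read -5.46 and -3.35 in Sham and -0.30, 1.04 and 0.38 in TBI, a rise of 4.77 ± 0.52 (adjusted p = 0.0002). Its neighbour in the genome, Igf2, read -0.93 and 0.30 against -0.70, -0.64 and 0.94, with overlap (difference 0.18, adjusted p = 0.92). Of the 13 genes of that system 3 rose, the others being the binding proteins Igfbp2 (2.06, adjusted p = 0.0023) and Igfbp3 (0.86, adjusted p = 0.016, and 0.13 without Sham replicate 2).

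Activity-dependent immediate early genes, which neurons switch on within minutes of firing, mostly did not pass at 24 h. Of 35 tested 4 rose (11.4%, against 9.27% of all named genes) and 1 fell. Of the 4 rises 2 passed without Sham replicate 1 and 2 without Sham replicate 2. Fosl1 was at least 5.91-fold higher, and Myc (1.17) had an adjusted p of 0.25 without Sham replicate 1. Maff passed (adjusted p = 0.011) with 2 of 3 TBI arrays and no Sham array above background, so no size is given, and the other rise was Atf3. Nr4a1, an orphan nuclear receptor, fell by 0.83, from -0.58 and -0.55 to -1.44, -1.44 and -1.30 (adjusted p = 0.006). Fos differed by 1.31 (adjusted p = 0.23) and Arc, which trims synaptic receptors, by -0.86 (adjusted p = 0.42). Of 34 growth factor genes 4 rose and 2 fell, of which 2 rises passed with either Sham array or TBI replicate 2 left out, and 1 fall when any 1 array was left out. Gfra1, a receptor for the factor GDNF, rose by 1.63 (adjusted p = 0.0022), Hbegf by 2.10 (0.18 without Sham replicate 1), and Fgf1 fell by 1.04 (adjusted p = 0.0038). Bdnf, the neurotrophin of the hippocampus, read -3.70 and -4.15 against -3.74, -3.73 and -3.26 (difference 0.35, adjusted p = 0.7), and its receptor Ntrk2 differed by -0.51 (adjusted p = 0.3).

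**Figure D3:**
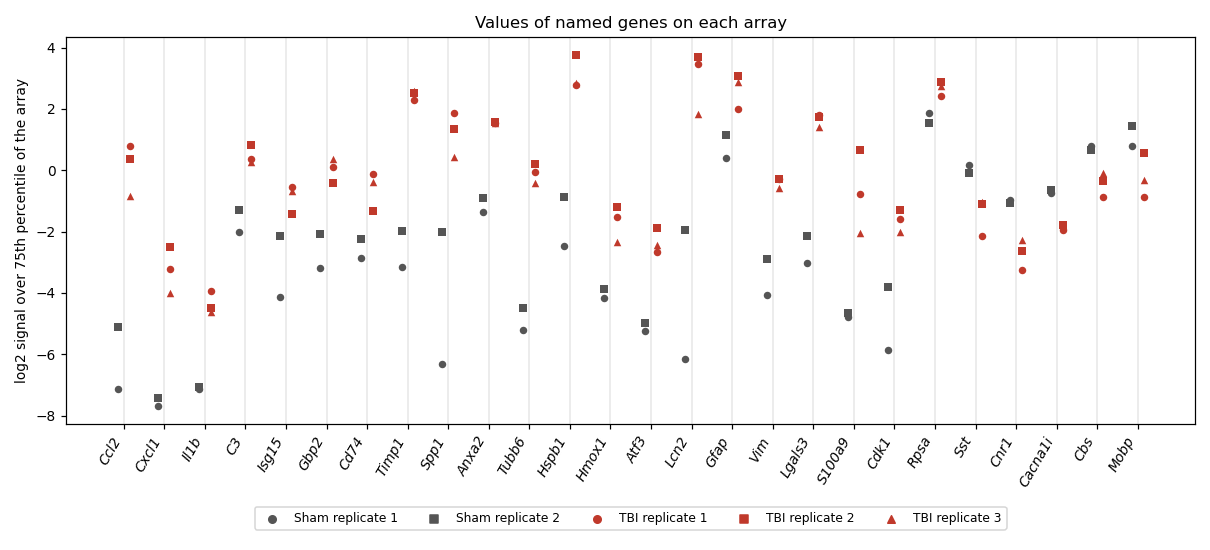
Values of named genes on each of the 5 arrays (y axis, log2 over the array's 75th percentile), with Sham in grey and TBI in red and a symbol for each replicate. In most genes that rose, Sham replicate 2 lies above Sham replicate 1, furthest in Lcn2 (-1.96 against -6.16) and Spp1, and all 3 TBI arrays lie above both.

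Genes of dividing cells rose as a group. Of 43 cell cycle and DNA replication genes 26 rose, none fell and the median was 1.35, and 0.51 with normexp correction. Cdk1, the kinase that drives entry into mitosis, read -5.86 and -3.81 in Sham and -1.59, -1.30 and -2.01 in TBI, and rose by 3.21 ± 0.66 (adjusted p = 0.0069). Mki67, the proliferation marker, rose by 3.03, the cyclin Ccna2 by 2.48, the spindle protein Nusap1 by 2.42 and Mcm3, part of the replicative helicase, by 2.36. In each of these Sham replicate 2 lay above Sham replicate 1, and none passed without Sham replicate 1 (adjusted p = 0.09 for Cdk1, 0.14 for Mki67, 0.07 for Ccna2, 0.069 for Nusap1 and 0.18 for Mcm3). Without Sham replicate 1, 3 of the 26 passed, against 17 without Sham replicate 2. The median of the list still lay above Sham replicate 2 (0.26) on every TBI array, at 1.35, 1.42 and 1.12 relative to the mean of Sham.

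Ribosomal, proteasomal and lysosomal genes shifted by small amounts. Of 76 ribosomal protein genes 10 rose, none fell and the median was 0.32. Rpsa read 1.86 and 1.55 against 2.43, 2.88 and 2.75 and rose by 0.98 (adjusted p = 0.0067, and 0.076 without Sham replicate 2). That count was unstable: it was 35 with each array scaled to the 75th percentile of all its probes and 40 without TBI replicate 1, and of the 10 rises 3 passed without Sham replicate 1, 1 without Sham replicate 2 or TBI replicate 2 and 6 without TBI replicate 3. Of 41 proteasome genes 7 rose, among them the immune subunits named above, with a median of 0.25, and 4 of the 7 passed without Sham replicate 2 and 4 without TBI replicate 2. Psme2, the partner of Psme1, rose by 0.87 (adjusted p = 0.0026). Among 40 lysosomal genes 7 rose: Ctsc and Ctsz, cathepsins of phagocytes (2.16 and 1.83, adjusted p = 0.002 and 0.0014), Cd63 (1.58), Lgmn (1.04) and Cd68 (1.67), Grn and Ctsb. Cd68 did not pass without Sham replicate 1 (adjusted p = 0.13). Ctsd, the main aspartic protease, differed by 0.26 (adjusted p = 0.39), and 4 of the 7 rises passed without Sham replicate 1 and 4 without Sham replicate 2.

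Few genes of energy metabolism passed. Of 70 nuclear-encoded respiratory chain genes 1 rose and 2 fell, with a median of -0.02. The rise, Ndufa11, passed without TBI replicate 1 and not without any other array, and of the falls, Uqcrq and Cox7c, 0 passed without Sham replicate 1 and 1 without Sham replicate 2. Of 31 genes of glycolysis and hypoxia 2 rose and 1 fell, with a median of 0.04. Hexokinases parted: Hk1, the form of neurons, fell by 1.11, from 0.97 and 0.81 to at most 0 on the TBI arrays (adjusted p = 0.0017), and Hk3, the form of myeloid cells, was at least 7.25-fold higher (adjusted p = 0.00024). Slc16a1, which carries lactate, rose by 0.91 (adjusted p = 0.01, and 0.084 without Sham replicate 1).

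Genes of neuronal signalling lay below 0 in the median, and most of them did not pass. This did not hold on each array. Relative to the mean of Sham, channel genes had medians of -0.53, -0.23 and 0.04 on TBI replicates 1 to 3. Glutamate, GABA and neuropeptide lists lay at 0.12, 0.17 and 0.13 on TBI replicate 3, against -0.55, -0.47 and -0.43 on TBI replicate 1. Synaptic and monoamine lists lay at -0.07 and -0.05 on TBI replicate 3. The shares that fell, 10.45% of channel and 7.27% of synaptic genes, were read against 5.66% of all named genes. Of 67 channel subunits 7 fell and 1 rose, with a median of -0.28. Cacna1i, a low-threshold calcium channel, read -0.75 and -0.65 in Sham and -1.96, -1.79 and -1.78 in TBI, and fell by 1.14 (adjusted p = 0.00028). Cacna1b, the N-type calcium channel of nerve endings, fell by 0.76 and Kcnh4 by 0.98, and both missed the threshold without Sham replicate 2 (adjusted p = 0.075 and 0.083). The channel that rose was Kcnn4, a potassium channel of microglia and other immune cells (3.41, adjusted p = 0.0044, with 1 of 2 Sham arrays above background). Of the 7 falls, 3 passed without Sham replicate 1, 1 without Sham replicate 2 and 4 without TBI replicate 1. Of 55 synaptic genes 4 fell and 2 rose, with a median of -0.27, and 0 of the 4 falls passed without Sham replicate 1, or without Sham replicate 2, 1 without TBI replicate 1 and 2 without TBI replicate 2. The rises, Sypl2 and Homer3, came to 0 without Sham replicate 1 and to 1 without Sham replicate 2, TBI replicate 2 or TBI replicate 3. The falls were Nlgn2 and Bsn, of the synapse's scaffold, and Syt1 and Vamp1, of vesicle release.

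Most receptors of the main transmitters did not pass. Falls made up 8.33% of glutamate, 5.26% of GABA and 18.2% of monoamine and acetylcholine genes, against 5.66% of all named genes. Of 24 glutamate genes 2 fell: Grin2d, an NMDA receptor subunit, by 0.74 and the kainate receptor subunit Grik2 by 0.48, with adjusted p values of 0.18 and 0.15 without Sham replicate 2, and 1 of them passed without Sham replicate 1, TBI replicate 1 or TBI replicate 2. The core subunits Gria1 and Grin1 differed by 0.09 and -0.55 and did not pass (adjusted p = 0.81 and 0.34). Of 19 GABA genes 1 fell, Gabrq, a rare receptor subunit (-1.37 and -1.20 against -2.88, -2.50 and -2.48, a fall of 1.34, adjusted p = 0.00059), and Gad1, which makes GABA, overlapped between groups (adjusted p = 0.55). Monoamine and acetylcholine receptors fell in 4 of 22 cases and rose in 1. Adra2b and Adra1d, adrenergic receptors, fell by 1.77 and 1.14, the nicotinic subunit Chrnb4 by 1.0 and the serotonin receptor Htr5b by 0.99. Adra1d and Htr5b did not pass without Sham replicate 2 (adjusted p = 0.1 and 0.086), nor did the rise. The serotonin receptor Htr1a differed by -0.35 (adjusted p = 0.42), and the serotonin transporter Slc6a4, the target of fluoxetine and sertraline, did not pass the filter on brightness.

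Among neuropeptides and markers of interneurons 3 of 32 fell, and 1 of these passed without Sham replicate 1. Sst (somatostatin), the peptide of a class of dendrite-targeting interneurons, read 0.19 and -0.08 in Sham and -2.13, -1.11 and -1.02 in TBI. It fell by 1.48 ± 0.32 (adjusted p = 0.0085, and 0.073 without Sham replicate 1). Chga (chromogranin A), a protein of peptide vesicles, fell by 1.46 (adjusted p = 0.0068), and Lhx6, a transcription factor of interneurons, by 0.70 (adjusted p = 0.02, and 0.12 without Sham replicate 2). Npy, a peptide of overlapping interneuron classes, read 1.0 and 1.28 against 0.88, 1.55 and 1.71 (difference 0.24, adjusted p = 0.66). Outside the lists, Cnr1, the cannabinoid receptor of interneuron terminals, fell by 1.70, from -0.97 and -1.05 to -3.26, -2.62 and -2.26 (adjusted p = 0.00087).

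In intracellular signalling 3 of 41 genes fell and none rose. These were the phosphodiesterases Pde4d (-1.79) and Pde10a (-0.60), which degrade cyclic AMP, and Pik3r5 (-1.11, adjusted p = 0.0021). Pde4d had an adjusted p of 0.088 and Pde10a one of 0.11 without Sham replicate 1, and 1 of the 3 falls passed without Sham replicate 2. Creb1 and Akt1 differed by 0.35 and 0.12 (adjusted p = 0.18 and 0.59). Of 16 clock genes Per3 fell by 1.14 (adjusted p = 0.0014), and Timeless rose but lost the call with Sham replicate 1 or any 1 TBI array left out. Of 16 glucocorticoid-responsive genes 2 rose and 2 fell, with 1 of each passing with either Sham array left out and 1 fall with any 1 TBI array left out: Tgm2, a transglutaminase, rose by 2.35 (adjusted p = 0.00037) and Tsc22d3, a standard glucocorticoid target, fell by 0.87 (adjusted p = 0.009, and 0.07 without Sham replicate 2). In cholesterol and fatty acid metabolism 2 of 36 rose and 3 fell, with 1 rise passing with either Sham array or TBI replicate 2 left out. Of the falls 0 passed without Sham replicate 1 and 1 without Sham replicate 2, TBI replicate 1 or TBI replicate 2. Ch25h, which makes the oxysterol 25-hydroxycholesterol in macrophages, rose by 2.41 (adjusted p = 0.0025), and Mylip, which degrades the LDL receptor, fell by 0.99 (adjusted p = 0.0087, and 0.066 without Sham replicate 1). Of 19 Notch pathway genes Rbpj rose and Hes1 fell, and both lost the call without any 1 array other than TBI replicate 1.

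Cell type marker lists fell into those far above Sham and those near it. Reactive astrocyte genes rose in 21 of 26 cases with none falling and a median of 2.43. Gfap, the intermediate filament of astrocytes, read 0.41 and 1.15 in Sham and 2.00, 3.07 and 2.90 in TBI, a rise of 1.88 (adjusted p = 0.014, and 0.13 without Sham replicate 1). Vim (vimentin), the filament of immature and reactive glia, rose by 3.08 (adjusted p = 0.00018) and Aspg, an asparaginase, by 3.72 (adjusted p = 0.00054). Summed over the list on the linear scale, the level was 5.58 and 8.13 in Sham and 42.0, 76.4 and 39.7 in TBI. Bright members weigh most in that sum. On TBI replicate 2 they include Serpina3n (4.29), Hspb1 (3.77) and Gfap, and also Lcn2, which is in the neutrophil list too. Of the homeostatic astrocyte genes 2 of 20 fell, among them Cbs, which makes cystathionine (-1.16, adjusted p = 0.0078, and 0.063 without Sham replicate 1). Of the 2 falls 0 passed without Sham replicate 1, 1 without Sham replicate 2 and 1 without TBI replicate 2. The median of the list was -0.40. The glutamate transporter Slc1a2 overlapped between the groups (adjusted p = 0.58). Aqp4, the water channel of astrocyte endfeet, gave -0.07 with its brightest probe and a rise of 1.19 with another, so its direction is not settled.

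Markers of activated microglia and macrophages rose in 18 of 25 cases, with a median of 1.84. Lgals3 (galectin 3), a lectin of phagocytes, read -3.04 and -2.14 against 1.82, 1.72 and 1.40 and rose by 4.24 ± 0.36 (adjusted p = 4.3e-05). Gpnmb, a glycoprotein of lipid-laden phagocytes, rose by 2.57 and the Fc receptor Fcgr3a by 2.73 (adjusted p = 0.00034 and 0.00064). Msr1, a scavenger receptor, was at least 4.15-fold higher. The summed level of the list was 7.68 and 9.53 in Sham and 28.8, 27.3 and 21.7 in TBI. Genes of resting microglia did not lie as far out. Of 20, 6 rose with a median of 0.37, and the most specific of them, P2ry12 and Tmem119, read -1.03 and -2.54 against -2.29, -2.08 and -1.35, and -1.12 and -2.47 against -2.62, -1.99 and -2.92, overlapping in both cases (adjusted p = 0.9 and 0.28). Tyrobp, an adaptor of microglia and myeloid cells alike, rose by 1.22, and it was 1 of the 6 rises, none of which passed without Sham replicate 1 and 3 of which passed without TBI replicate 2.

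Neutrophil markers had a median of 3.10 over 8 genes tested, of which 6 rose. Most were dim in Sham: over the 3 above background on all 5 arrays the median was 1.2, with 1 rise, and with normexp correction it was 0.94 over the 8. S100a9, the calcium-binding protein that fills neutrophils, read -4.79 and -4.65 in Sham and -0.77, 0.65 and -2.06 in TBI, a rise of 4.0 ± 0.61 (adjusted p = 0.0014). Its partner S100a8 rose by 3.33, with 1 of 2 Sham arrays above background. TBI replicate 2 was the highest of the injured rats and TBI replicate 3 the lowest in both. The list's summed level was 0.235 and 0.516 against 12.2, 16.1 and 4.28, of which Lcn2, also made by astrocytes, is the brightest member. Several granule proteins of neutrophils, among them Elane, Camp and Ltf, did not pass the filter on brightness, as 11 genes of the list did not. Of the 6 rises, 2 passed without Sham replicate 1 and 3 without Sham replicate 2. Lymphocyte genes were near the limit of measurement, with 4 tested, 16 not, and 1 rise, Cd8a, on 2 of 3 TBI arrays above background, which lost the call without Sham replicate 1, Sham replicate 2 or TBI replicate 1. Erythroid and platelet genes showed no call among 8, limma passing none of them with or without either Sham array, and the summed level was 46.9 and 61.9 against 43.0, 48.2 and 54.0.

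Neurons and oligodendrocytes stood near or slightly below Sham. Of 18 neuronal markers 2 fell, with a median of -0.20 and a summed level of 51.1 and 53.2 in Sham and 35.6, 44.9 and 52.3 in TBI. Of the 2 falls 0 passed without Sham replicate 1, Sham replicate 2 or TBI replicate 1, and 1 without TBI replicate 2. TBI replicate 1 was the lowest in neurons, as it was in the median of all probes, and TBI replicate 3 lay within the Sham range. By region, 2 of 9 markers of CA1 pyramidal cells fell (median -0.49), 1 of 9 of dentate granule cells (C1ql3, -1.31, adjusted p = 0.016, and 0.18 without Sham replicate 2) and none of 9 of CA2 and CA3. Of the 2 falls in CA1 markers 1 passed without Sham replicate 1, Sham replicate 2, TBI replicate 1 or TBI replicate 3. Wfs1 and Fibcd1, the markers listed first for CA1, overlapped between groups (adjusted p = 0.92 and 0.45). Oligodendrocyte and myelin genes had a median of -0.44 and 1 fall in 25, Mobp (-1.33, adjusted p = 0.033, and lost without any 1 array other than TBI replicate 2), while Mbp differed by -0.44 (adjusted p = 0.21). Among precursors of oligodendrocytes Gpr17, a receptor of cells about to differentiate, fell by 1.26 (adjusted p = 0.0011, 1 of 3 TBI arrays above background) and Pdgfra overlapped (adjusted p = 0.8).

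**Figure D4:**
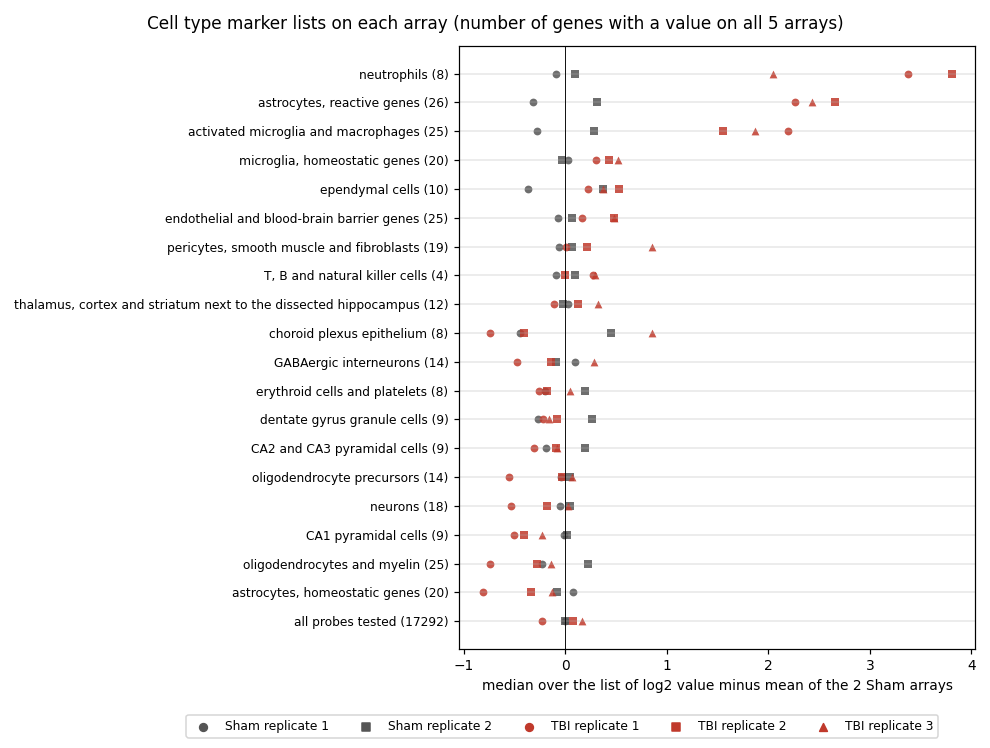
Median over each marker list of the log2 value minus the mean of the 2 Sham arrays (x axis), for each of the 5 arrays, with the number of genes in brackets. Neutrophil, reactive astrocyte and activated macrophage lists lie between 1.55 and 3.81 on every TBI array, and neuron and oligodendrocyte lists lie at or below 0.028 on every TBI array, lowest in TBI replicate 1.

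Of 25 endothelial and barrier genes of the vessels 5 rose and 2 fell, with a median of 0.42, and of 0.06 with normexp correction. Cldn5, a tight junction protein, rose by 0.63 (adjusted p = 0.012) and the adhesion molecule Icam1 by 1.14 (adjusted p = 0.019), while Abcg2, a drug efflux pump of the barrier, read -2.0 and -2.57 against -5.0, -4.60 and -3.27 and fell by 2.0 (adjusted p = 0.0099). None of the 5 rises passed without Sham replicate 1, 2 did without Sham replicate 2 and 1 without TBI replicate 2. Neither fall passed without Sham replicate 1 (adjusted p = 0.092 for Abcg2), and 1 passed with any 1 TBI array left out. Tagln, a smooth muscle protein, rose by 2.55 (adjusted p = 0.0011) among mural and fibroblast genes, of which 2 of 19 rose, 1 of them without Sham replicate 1, Sham replicate 2, TBI replicate 2 or TBI replicate 3. Pdgfrb and Acta2 did not pass (adjusted p = 0.29 and 0.22). Choroid plexus transcripts varied between rats: Ttr (transthyretin), its most abundant transcript, read -0.83 and 4.86 in Sham and -0.68, 0.90 and 4.83 in TBI. Sham replicate 2 and TBI replicate 3 were the high arrays, so this did not split the groups, and the part of choroid plexus in Sham replicate 2's other values was not tested.

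Beyond the lists, the 20 furthest rises among genes above background on all 5 arrays were for the most part genes described above, joined by Sdc1 (syndecan 1, a heparan sulphate carrier, 3.51), Emp3, a membrane protein (3.35), Clec12a, a myeloid lectin (3.23), and Plp2 (2.78). The 20 furthest falls had little in common in function. Cox6c-ps1, annotated as a pseudogene, fell by 2.18 (adjusted p = 0.075 without Sham replicate 1), and its probe may also read other copies. Rtn4rl1, a Nogo receptor relative on neurons, read -2.35 and -2.88 against -4.92, -4.38 and -4.05 and fell by 1.84 (adjusted p = 0.0039). Cyp4f4, a fatty acid hydroxylase, fell by 1.82 (adjusted p = 0.00053), and the transcription factor Pou5f1 by 1.74 (adjusted p = 0.00084). Falls were dimmer than the array as a whole: the median level was -3.20 for probes that fell and -2.82 for those that rose, against -2.18 for all probes tested. In the brighter part of the tested probes, 8661 of them, 596 rose and 539 fell. Among genes above background on every array of 1 group and on none of the other, 80 were seen in TBI alone, 68 of them past the threshold, and 74 in Sham alone, 51 past it. These genes were picked by the same arrays that gave the calls, so the counts past the threshold are no separate result. Of all named genes 14.9% passed. The bounds were far higher on the injured side, where 70 genes reached a factor of 2, than on the Sham side, where 12 did. There the furthest were Brap, a BRCA1-associated protein (at least 3.79-fold lower after TBI), and Bicdl1 (at least 2.92-fold lower).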

How the data were processed

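Gene expression arrays of 2 Sham and 3 TBI rats were compared, and the titles gave each sample its group and replicate number. The deposited scanner tables, made by the authors with Agilent's Feature Extraction program from 1-colour slides, hold linear spot intensities after background subtraction, with flags for outlying spots and for spots above background. The deposited series table, used as an alternative, holds the authors' intensity values scaled per array. Array brightness gives no read depth, and the number of arrays limits the precision.

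Outlier-flagged and control spots were left out, the spots of a probe averaged, and every value scaled to the 75th percentile among the detected probes of its array before log2. A probe counted as above background where a share over 0.5 of its spots carried that flag. Group means were fitted with limma 3.58.1 in R 4.3.3 (lmFit, eBayes) over all 14 gene expression arrays, with 9 residual degrees of freedom, two-sided, and TBI minus Sham was adjusted by Benjamini-Hochberg over 17322 probes. For genes above background in 1 group alone, the bound set the bright group's mean against the other group's mean of, per array, the higher of the lowest signal above background and the probe's own. Tables were handled in Python 3.11.15 with pandas 2.3.3, and the fit was tested on simulated data.

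Accessions were matched to the RefSeq rat table (GRCr8): 18643 of 30367 probes had a symbol, 11902 of them tested, and 5420 tested probes stayed unnamed. The 58 lists hold 1798 genes, of which 1395 were tested, 284 were not bright enough and 119 had no matched probe. Named were the first 2 genes of each list and up to 8 with the largest difference past the threshold, the 20 furthest changes each way among symbols past the threshold, above background on all 5 arrays and without overlap, and the 10 largest bounds each way. Members and lists were chosen with earlier results of these data known, and lists were given no test. Each sample carries its own number in the titles, and p-values measure the spread between these samples. Alternatives were other normalizations, filters, fits and each array left out. Some genes that the rule names are not reported here. MicroRNA files were not used here.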

Additional observations from a re-analysis of the deposited data

How the results depend on the processing

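In TBI vs. Sham gene expression, the count of 2879 probes past the threshold was 4467 with quantile normalization (2215 up, 2252 down), 4392 on the series table values (2279 down), 4446 with the percentile over all probes (2308 down), 1916 with no filter on dim probes (924 up) and 1540 with the 5 arrays fitted alone (822 up, 718 down). With 1 array left out it ran from 1268 to 2982, the rises from 557 to 1956 and the falls from 562 to 1805. The methods' t-test on the 5 arrays called 3031 probes at its unadjusted threshold with a fold over 1.2, and 0 after Benjamini-Hochberg. Limma passed 5335 at an unadjusted p under 0.05. That count had no fold filter and took the spread from 14 arrays, so it is not like for like with the 3031. Of the genes named, 137 of 335 lost the call without Sham replicate 1 and 107 without Sham replicate 2. Canx, called higher with no Sham array above background, came to -0.0198 under normexp correction, where it did not pass. The causes were not tested.

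Same-numbered arrays did not deviate together from their group means (26 pairs, r from -0.23 to 0.23, 2 over 0.1). Deviations within a group sum to 0, and those of the 2 Sham arrays mirror each other, so this cannot exclude pairing. With the replicate number as a block 2388 probes passed. Normexp used median spot signals, in place of mean signals. List medians kept their sign under the other scalings except those of purine receptors, lymphocytes and neighbouring regions under normexp. Their size was not kept: most medians above 0 shrank under normexp. It was 0.11 against 0.43 for cell death and 0.12 against 0.45 for NF-kappaB and Toll-like receptors. For prostaglandins and leukotrienes it was 0.07 against 0.35. The medians of heat shock, lysosomal and ribosomal genes did not shrink. Sham holds 2 arrays on a slide of their own, so no within-slide value could be had.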

Other observations

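Among groups of genes sharing the start of a symbol, olfactory receptors stood out on the lower side. Of 1128 olfactory receptor probes on the array 23 were tested, of which 20 fell and none rose, with a median of -1.37. They were dim, at a median level of -5.75, and 5 of the 23 were above background on all 5 arrays. Some, among them Or4b1 and Or5p76b, were above background on both Sham arrays and on no TBI array. A dim probe can be tested for being high in Sham alone, which favours a fall, so the count is no evidence about the family. Over all 1128 probes, tested or not, the median difference was 0.077 and 453 lay lower after TBI. The kinesins (Kif genes), motor proteins of which many serve the mitotic spindle, rose in 7 of 21 cases, and cytochrome P450 genes (Cyp) fell in 5 of 27 and rose in 1. These groups were chosen after their values were seen.

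The arrays of injured rats given a drug are not compared here, and their list medians are given as values. Relative to the mean of Sham, the cell cycle list had a median of 1.35, 1.42 and 1.12 on the TBI arrays, and on TBI+Zoloft replicate 3 it was 0.16, within the Sham values of -0.26 and 0.26. On the same array the neutrophil list stood at 4.13, above each of the 3 TBI arrays (2.04 to 3.81). TBI+Imipramine replicates 1 and 2 lay higher still, at 4.24 and 4.51, and the other drug arrays ran from 2.42 to 3.48.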
